A study of Mus musculus with 31 samples.

Results

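The mouse Hox genes were followed in uterus through the probes of the array whose gene name is Hox, a cluster letter from a to d and a number. All 39 genes of the family were on the array, with 44 probes, among 34797 gene names, and each gene was read by its brightest probe. RNA from the uterus of female mice was measured on 31 one-colour arrays in 8 groups. Every mouse had been ovariectomised at 4 weeks of age and rested for 3 weeks, and 6 h before the uterus was taken it received castor oil under the skin with 0 µg/kg (placebo, PLB) or 8 µg/kg of 17β-estradiol (E2), the main estrogen. Wild-type (WT) and mutant (KO) mice came from 2 lines, AF2 with a C57BL6/J background and MISS with C57BL6/N, with 4 arrays in each group except AF2 KO E2, which had 3. From knowledge of the lines, Esr1, the gene of estrogen receptor α (ERα), is altered in the AF2 mutant so that the receptor has no activation function 2, the surface that binds coactivators when hormone is present, and the MISS mutant makes a nuclear ERα that is missing from the cell membrane. The wild types differ in line as well as in substrain. Nothing in the labels says that the arrays of a group are separate mice, so p-values measure the spread between these samples.

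Hox genes code for homeodomain transcription factors that give cells their position along the body. They lie in 4 clusters, and genes at the anterior end of a cluster (paralogous groups 1 to 3) act nearer the head than central (4 to 8) and posterior (9 to 13) ones. In the female tract, Hoxa9, Hoxa10, Hoxa11 and Hoxa13 mark oviduct, uterus, lower uterus with cervix, and vagina in that order. Hoxa10 and Hoxa11 stay active in the adult uterus, where the stroma needs them for implantation. Their proteins bind DNA together with cofactors of the TALE class (PBX, MEIS and PKNOX proteins), and Polycomb and Trithorax proteins keep Hox clusters silent or active.

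Levels below are log2 processed signals minus the 75th percentile of the array, so a difference of 1 is 2-fold, and levels of different probes are not compared with each other. That percentile ran from 475 to 918 intensity units. The scanner software put 61.8 to 77.1% of an array's probes well above background, and 0 spots were saturated. With 3 or 4 arrays per group, their number limits the precision. Markers of epithelium, stroma and smooth muscle were well above background on all 31 arrays, 12, 10 and 10 of as many. Of 13 markers of ovary, oviduct, bladder, vagina and skeletal muscle, 6 were, and Fshr was above it on 0 arrays. Esr1 itself had group means from 2.86 (MISS WT E2) to 3.42 (AF2 WT placebo). Esr1 lay at 2.88 to 3.06 in AF2 KO placebo and at 3.24 to 3.54 in AF2 WT placebo. These groups did not overlap, as for 14.2% of all tested genes in this comparison. The part of Esr1 RNA in the Hox responses was not tested. Its probe checks no genotype, because the position of each mutation is not in the sources used here.

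Most Hox genes gave a signal in these uteri. A gene was tested if some group had its probe well above background on each of its arrays, which held for 32 of the 39, and 30 of these were above background on all 31 arrays. By cluster, 11 of 11 Hoxa, 8 of 10 Hoxb, 7 of 9 Hoxc and 6 of 9 Hoxd genes were tested. Hoxc8 was above background on 26 arrays and Hoxa13 on 28. The 7 untested genes lie at the ends of the clusters. Hoxb1 and Hoxb13 were above background on 0 arrays, Hoxd13 on 1, Hoxc13, Hoxd1 and Hoxd12 on 2 each, and Hoxc12 on 4. Hoxd1 was above background on 2 of the 4 MISS WT E2 arrays and on no other array, and its mean in that group, −5.34, was at least 1.83-fold higher than the limit of the MISS WT placebo arrays, which had a measured mean of −8.08. Among the other untested genes the largest such bound was 1.04-fold, for Hoxc13 in AF2 KO. The probes lie in mm9 on chromosome 6 for Hoxa, 11 for Hoxb, 15 for Hoxc and 2 for Hoxd genes. The map of detection by group shows the signal in the inner genes and the gaps at the ends.

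**Figure D1:**
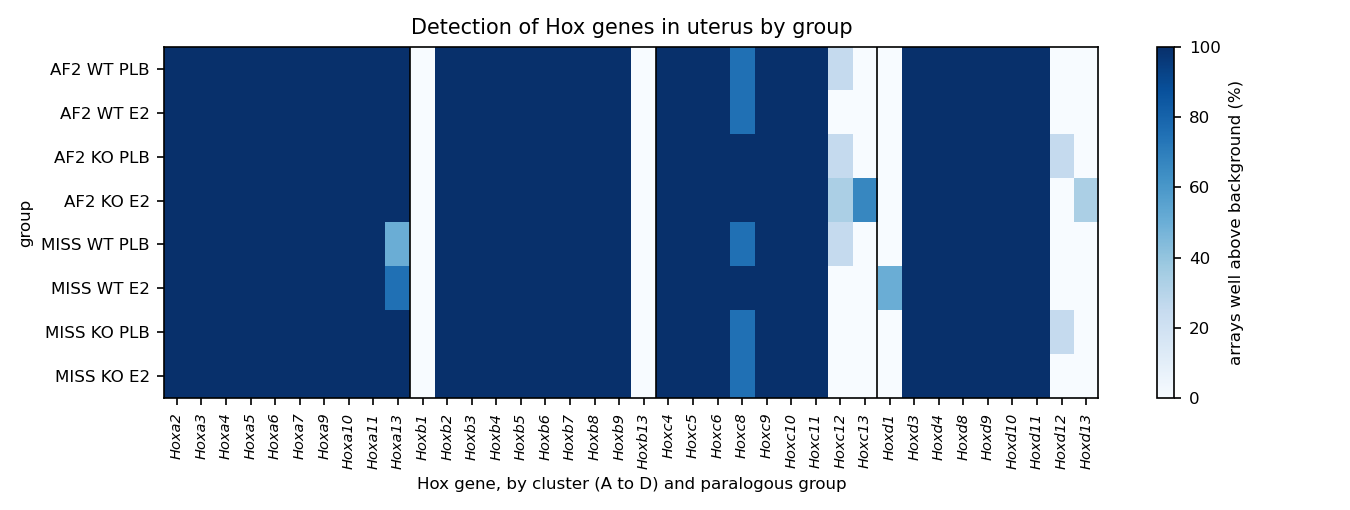
Share of arrays (in percent, colour) on which the probe of each Hox gene shown (columns, by cluster and paralogous group) was well above background in each of the 8 groups (rows). Tested genes are dark in nearly every group, and the pale columns are Hoxb1, Hoxb13, Hoxc12, Hoxc13, Hoxd1, Hoxd12 and Hoxd13.

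Estradiol lowered Hox genes of all 4 clusters in wild-type uterus. In AF2 WT mice 23 of 32 tested Hox genes were called lower (adjusted p under 0.05) and 0 higher, against 30.0% lower and 27.7% higher, 57.6% called in all, among all 26876 tested genes. The median change of the 32 genes was −0.65, and that of all tested genes −0.06. In MISS WT mice 19 were lower and 2 higher, against 27.1% and 35.2% of all genes (62.3% called), with a median of −0.56 against 0.16. In MISS KO mice 19 were lower and 1 higher, against 27.2% and 30.1% of all genes (57.3% called), with a median of −0.48 against 0.03. AF2 KO mice gave 0 called Hox genes, 0 also at an unadjusted p under 0.05, while 3.67% of all genes were called. Their median Hox change was 0.02 for the 32 tested genes. With other scalings the median of all genes in MISS WT lay between 0.04 and 0.22. The Hox median minus that of all genes was −0.84 to −0.45 in MISS WT over 11 settings and −0.67 to −0.51 in AF2 WT.

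The lowered genes were largely the same members in the lines. Of the 23 lower in AF2 WT and the 19 lower in MISS WT, 19 were shared. This was 82.6% of the first and 100% of the second. These comparisons share no arrays, but the same model, fitted to all arrays, gave both, so they share each gene's variance estimate. Among all tested genes 30.0% were lower in AF2 WT and 27.1% in MISS WT, and their overlap was not counted. Whether Hox genes overlap more than other genes was not tested. A core of 18 was lower in AF2 WT, MISS WT and MISS KO alike. It held Hoxa2, Hoxa3, Hoxa5, Hoxa6, Hoxa7, Hoxa9 and Hoxa10, Hoxb2, Hoxb4, Hoxb5, Hoxb6, Hoxb7 and Hoxb8, Hoxc4, Hoxc6 and Hoxc9, and Hoxd3 and Hoxd4. Called and lower in AF2 WT but not called in MISS WT were Hoxa11, Hoxc10, Hoxc11 and Hoxd9, all of paralogous groups 9 to 11. The difference between the wild types was called for Hoxa11 and Hoxc11 and not for Hoxc10 (adjusted p = 0.311) or Hoxd9 (adjusted p = 0.207). Along the clusters, 5 of 6 anterior, 11 of 15 central and 7 of 11 posterior tested genes were lower in AF2 WT. In MISS WT these counts were 5, 11 and 3, with 1 central gene (Hoxd8) and 1 posterior gene (Hoxb9) higher. In MISS KO they were 4, 11 and 4, with Hoxd8 again higher. The plot of estradiol changes by cluster shows the AF2 KO values beside 0 at nearly every gene.

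**Figure D2:**
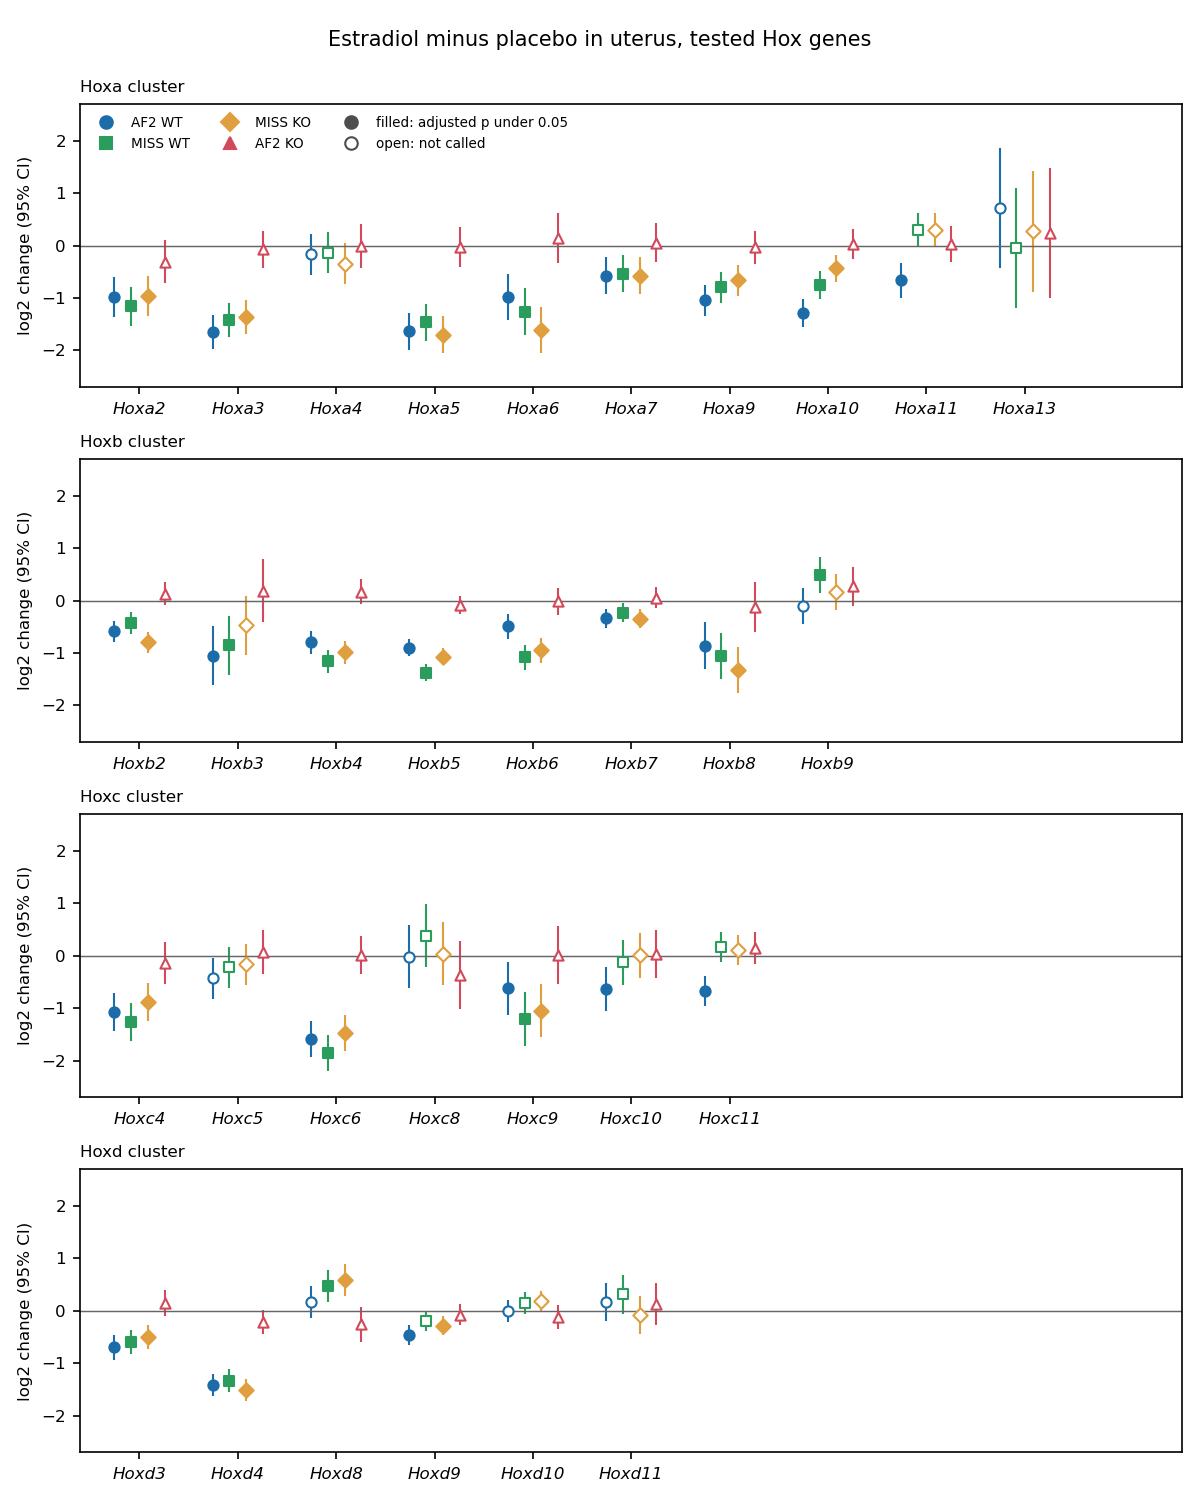
Log2 change from placebo to estradiol (y axis) with its 95% confidence interval (bars) for the tested Hox genes shown (x axis), 1 panel per cluster, in AF2 WT (circles), MISS WT (squares), MISS KO (diamonds) and AF2 KO (triangles). Filled symbols are called at an adjusted p under 0.05. Called values in the first 3 genotypes lie below 0 except for Hoxb9 and Hoxd8, and no triangle is filled.

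Sequence before the starts of Hox genes was also read. RefSeq promoter windows (GRCm38.p6, 250 bases upstream of the start) matched 22 of the 39 genes, in 24 windows. Among the matched genes were the untested Hoxb1, Hoxd1, Hoxd12 and Hoxd13. Hoxb2, Hoxb5, Hoxb6, Hoxb7, Hoxc6 and Hoxc9, which belong to the core, had no window. The counts below are thus not counts over the genes that fell. The full estrogen response element, a pair of half-sites facing each other with 3 bases between, was in 0 of the 24 and in 21 of all 32851 windows (0.0639%). Its half-site GGTCA, read on both strands and so also as TGACC, was in 11 of 24 Hox windows and in 35.2% of all windows. The TATA box TATAAA, on both strands, was in 4 Hox windows and in 12.4% of all. Hox windows had a median GC content of 58.6% and 12.5 CpG sites, and all windows 52.4% and 6. Below are windows of a pair of genes that fell in 3 genotypes (Hoxa5, Hoxd4), of one of the 4 genes whose response differed between the wild types (Hoxa11) and of one that was called in none (Hoxd10). Capitals mark half-sites and TATA boxes, and each sequence runs 5′ to 3′ on the strand of its gene.
Hoxa5, chr6:52204588-52204837, minus strand: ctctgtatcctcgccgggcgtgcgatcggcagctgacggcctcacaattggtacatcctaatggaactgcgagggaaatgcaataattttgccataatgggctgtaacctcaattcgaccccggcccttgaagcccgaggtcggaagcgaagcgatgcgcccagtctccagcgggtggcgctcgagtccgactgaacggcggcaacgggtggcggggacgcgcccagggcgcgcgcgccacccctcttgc
Hoxd4, chr2:74721728-74721977, plus strand: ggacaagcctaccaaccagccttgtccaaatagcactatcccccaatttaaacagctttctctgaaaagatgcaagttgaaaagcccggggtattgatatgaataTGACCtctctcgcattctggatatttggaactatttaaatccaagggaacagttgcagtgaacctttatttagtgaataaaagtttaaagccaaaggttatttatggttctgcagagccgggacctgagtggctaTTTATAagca
Hoxa11, chr6:52245811-52246060, minus strand: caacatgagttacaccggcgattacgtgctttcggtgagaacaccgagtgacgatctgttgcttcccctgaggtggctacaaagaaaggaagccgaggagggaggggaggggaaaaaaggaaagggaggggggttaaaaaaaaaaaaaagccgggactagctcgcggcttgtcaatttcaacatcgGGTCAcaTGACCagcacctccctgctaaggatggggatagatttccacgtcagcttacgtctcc
Hoxd10, chr2:74691641-74691890, plus strand: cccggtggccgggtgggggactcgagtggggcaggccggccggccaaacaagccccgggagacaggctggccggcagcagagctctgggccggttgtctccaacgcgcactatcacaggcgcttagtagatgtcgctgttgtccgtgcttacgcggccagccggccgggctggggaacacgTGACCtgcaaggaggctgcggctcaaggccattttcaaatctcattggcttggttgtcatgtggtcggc
In the Hoxa11 window the half-sites start at −64 and −57 from the gene start and face each other, 2 bases apart, so they are not the full element. The Hoxd4 window holds a half-site at −145 and a TATA box on the other strand (TTTATA), the Hoxd10 window a half-site at −69, and the Hoxa5 window neither motif. A match is a description of letters in this window.

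Hoxa5, which patterns lung and neck skeleton, was among the members with the largest decreases. Hoxa5 (probe at chr6:52152049-52152108, mm9) read −1.88, −1.43, −2.13 and −1.53 in AF2 WT placebo and −2.95, −3.34, −3.59 and −3.67 after E2. Hoxa5 in MISS WT went from −1.47, −1.98, −1.54 and −1.35 to −3.04, −3.30, −2.68 and −3.18. In both lines every E2 array lay below every placebo array. Hoxa5 in MISS KO read −1.45, −0.93, −1.07 and −1.17 with placebo and −2.81, −3.12, −2.82 and −2.66 with E2, again without overlap. Hoxa5 in AF2 KO stayed at −1.63, −1.81, −1.75 and −1.59 with placebo and −1.68, −1.90 and −1.58 with E2, which overlap. The changes were −1.64 ± 0.17 (SE) in AF2 WT (adjusted p = 5.21e-09), −1.46 ± 0.17 in MISS WT (adjusted p = 3.2e-08), −1.70 ± 0.17 in MISS KO (adjusted p = 2.43e-09) and −0.03 ± 0.19 in AF2 KO (adjusted p = 0.969).

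Hoxa3, needed for thymus and parathyroid, fell by similar amounts. Hoxa3 (chr6:52119087-52119146) read 0.72, 0.94, 0.61 and 0.62 in AF2 WT placebo and −0.62, −0.59, −1.12 and −1.38 after E2. Hoxa3 in MISS WT read 1.0, 0.28, 0.54 and 0.43, then −0.74, −0.84, −0.83 and −0.99. Hoxa3 in MISS KO read 0.60, 0.77, 0.68 and 0.34, then −0.63, −0.66, −0.78 and −0.98. No E2 array of these 3 genotypes reached its placebo arrays. Hoxa3 in AF2 KO overlapped, with 0.73, 0.53, 0.42 and 0.32 against 0.53, 0.48 and 0.27. Its decrease was 3.13-fold in AF2 WT (log2 change −1.65 ± 0.16 (SE), adjusted p = 8.03e-10), 2.67-fold in MISS WT and 2.57-fold in MISS KO.

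Hoxa2, a gene of the second pharyngeal arch, and Hoxa6 fell with wider spread. Hoxa2 (chr6:52112595-52112654) read −2.53, −2.42, −2.30 and −2.23 in AF2 WT placebo and −3.30, −2.74, −3.75 and −3.60 after E2. Hoxa2 in MISS WT read −1.92, −2.83, −2.09 and −2.62, then −3.27, −3.49, −3.56 and −3.77. The groups stood apart in both, with 1 AF2 WT E2 array near the placebo arrays. Hoxa2 in MISS KO read −2.62, −2.41, −2.38 and −2.86, then −3.64, −3.35, −3.68 and −3.45. Hoxa2 in AF2 KO read −2.50, −2.26, −2.56 and −2.40, then −2.73, −2.68 and −2.81, without overlap but with a change of −0.31 ± 0.20 (SE) that was not called (adjusted p = 0.461). The called changes were −0.98 ± 0.18 in AF2 WT, −1.16 ± 0.18 in MISS WT and −0.96 ± 0.18 in MISS KO.

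Hoxa6 (chr6:52158194-52158253) read −1.46, −1.67, −1.83 and −2.41 in AF2 WT placebo and −2.69, −2.50, −2.80 and −3.32 after E2. Hoxa6 in MISS WT read −1.48, −1.80, −2.02 and −2.06, then −2.99, −2.97, −3.0 and −3.46. Placebo and E2 arrays did not overlap, narrowly so in AF2 WT. Hoxa6 in MISS KO read −1.51, −1.25, −1.42 and −2.08, then −2.81, −3.19, −3.47 and −3.24, the largest of its decreases at −1.61 ± 0.21 (SE, adjusted p = 3.01e-07). Hoxa6 in AF2 KO read −2.0, −1.84, −2.13 and −2.30, then −1.5, −2.09 and −2.20, which overlap. The wild-type changes were −0.98 ± 0.21 in AF2 and −1.26 ± 0.21 in MISS. Hoxa7, the next gene of the cluster, was lower with a change of −0.58 ± 0.17 in AF2 WT, −0.54 ± 0.17 in MISS WT and −0.58 ± 0.17 in MISS KO, all called. The AF2 WT call of Hoxa7 missed the threshold, at an adjusted p of 0.0556, when the model held only the groups compared. Hoxa4, which is dim, was called in no genotype, with changes from −0.35 to −0.01, though its −0.35 in MISS KO was called with slide as a block (adjusted p = 0.0207).

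Hoxa10 is the member most studied in the adult uterus, where it is needed for the decidual response. Hoxa10 (chr6:52181922-52181981) read 3.70, 3.22, 3.21 and 3.49 in AF2 WT placebo and 2.07, 2.37, 1.83 and 2.21 after E2. Hoxa10 in AF2 KO read 2.92, 2.90, 3.14 and 3.19, then 3.23, 2.95 and 3.04. The AF2 WT groups stood well apart and the AF2 KO groups overlapped. Hoxa10 in MISS WT read 3.32, 2.80, 3.13 and 2.99, then 2.40, 2.10, 2.22 and 2.50. Hoxa10 in MISS KO read 2.83, 2.67, 2.80 and 2.86, then 2.32, 2.24, 2.37 and 2.50. Both MISS genotypes fell without overlap, by smaller amounts. The changes were −1.29 ± 0.13 (SE) in AF2 WT (adjusted p = 1.7e-09), −0.76 ± 0.13 in MISS WT (adjusted p = 9.98e-06), −0.44 ± 0.13 in MISS KO (adjusted p = 0.00445) and 0.03 ± 0.14 in AF2 KO (adjusted p = 0.948). The difference between the wild types, 0.53 ± 0.18, was not called (adjusted p = 0.061), and was called when slide entered as a block (adjusted p = 0.0186).

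Hoxa11, needed for uterine stroma and glands, fell in AF2 WT and was called in no other genotype. Hoxa11 (chr6:52192107-52192166) read 4.11, 3.56, 3.69 and 3.54 in AF2 WT placebo and 3.23, 3.53, 2.92 and 2.55 after E2. Hoxa11 in MISS WT read 3.49, 3.44, 3.38 and 3.30, then 3.76, 3.57, 3.58 and 3.88. Every AF2 WT E2 array lay below the placebo arrays, the nearest only just, and every MISS WT E2 array lay above them. Hoxa11 in MISS KO read 3.55, 3.22, 3.41 and 3.17, then 3.62, 3.62, 3.79 and 3.49, with overlap. Hoxa11 in AF2 KO read 3.61, 3.58, 3.96 and 3.5, then 3.79, 3.84 and 3.44, with overlap. Only the AF2 WT change was called, −0.67 ± 0.16 (SE, adjusted p = 0.000723), against 0.30 ± 0.16 in MISS WT (adjusted p = 0.107) and 0.29 ± 0.16 in MISS KO (adjusted p = 0.118). When the model held only the groups compared, the MISS WT increase was called (adjusted p = 0.0395). The sign in the MISS line depended on the scaling, with −0.18 in MISS WT and −0.07 in MISS KO by quantile normalization and −0.19 and −0.06 in the authors' deposited matrix, none called. The difference between the wild-type responses was itself called, 0.96 ± 0.22 (adjusted p = 0.00687), under these scalings too.

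Hoxa9, the oviduct gene of the series, lies next to Hoxa10 and fell in the same genotypes. Hoxa9 (chr6:52175595-52175654) read 0.21, −0.22, −0.24 and 0.06 in AF2 WT placebo and −0.79, −0.94, −1.54 and −1.11 after E2. Hoxa9 in MISS WT read 0.02, −0.48, 0.07 and −0.34, then −0.84, −1.08, −1.14 and −0.86. Hoxa9 in MISS KO read −0.02, −0.28, −0.34 and −0.41, then −1.08, −0.89, −0.70 and −1.02. All 3 stood apart from their placebo arrays. Hoxa9 in AF2 KO overlapped, with −0.47, −0.43, −0.32 and −0.50 against −0.32, −0.54 and −0.53. Its changes were −1.05 ± 0.14 (SE) in AF2 WT (adjusted p = 5.62e-07), −0.80 ± 0.14 in MISS WT and −0.66 ± 0.14 in MISS KO. A further Hoxa9 probe (chr6:52174165-52174224) gave −0.83 ± 0.21 in AF2 WT, called over all probes, and −0.47 ± 0.21 in MISS WT and −0.30 ± 0.21 in MISS KO, not called, so the probes disagree on the MISS calls.

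Hoxa13, the vaginal and cervical end of the series, was dim and variable. Hoxa13 (chr6:52208980-52209039) read −4.49, −3.23, −4.52 and −5.43 in AF2 WT placebo and −3.72, −4.01, −3.46 and −3.59 after E2. Hoxa13 in AF2 KO read −4.38, −5.53, −4.82 and −5.55, then −4.58, −4.91 and −4.99. Placebo and E2 arrays overlapped in both. Hoxa13 in MISS WT read −6.01, −3.13, −5.51 and −6.23, then −5.43, −5.26, −5.89 and −4.49, and was above background on 2 of 4 placebo and 3 of 4 E2 arrays. Hoxa13 in MISS KO read −4.42, −4.58, −5.47 and −4.71, then −3.58, −3.42, −5.52 and −5.59. No change was called. The 95% intervals reached from −1.20 to 1.87 over the 4 genotypes, so they do not exclude a change of 2-fold.

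**Figure D3:**
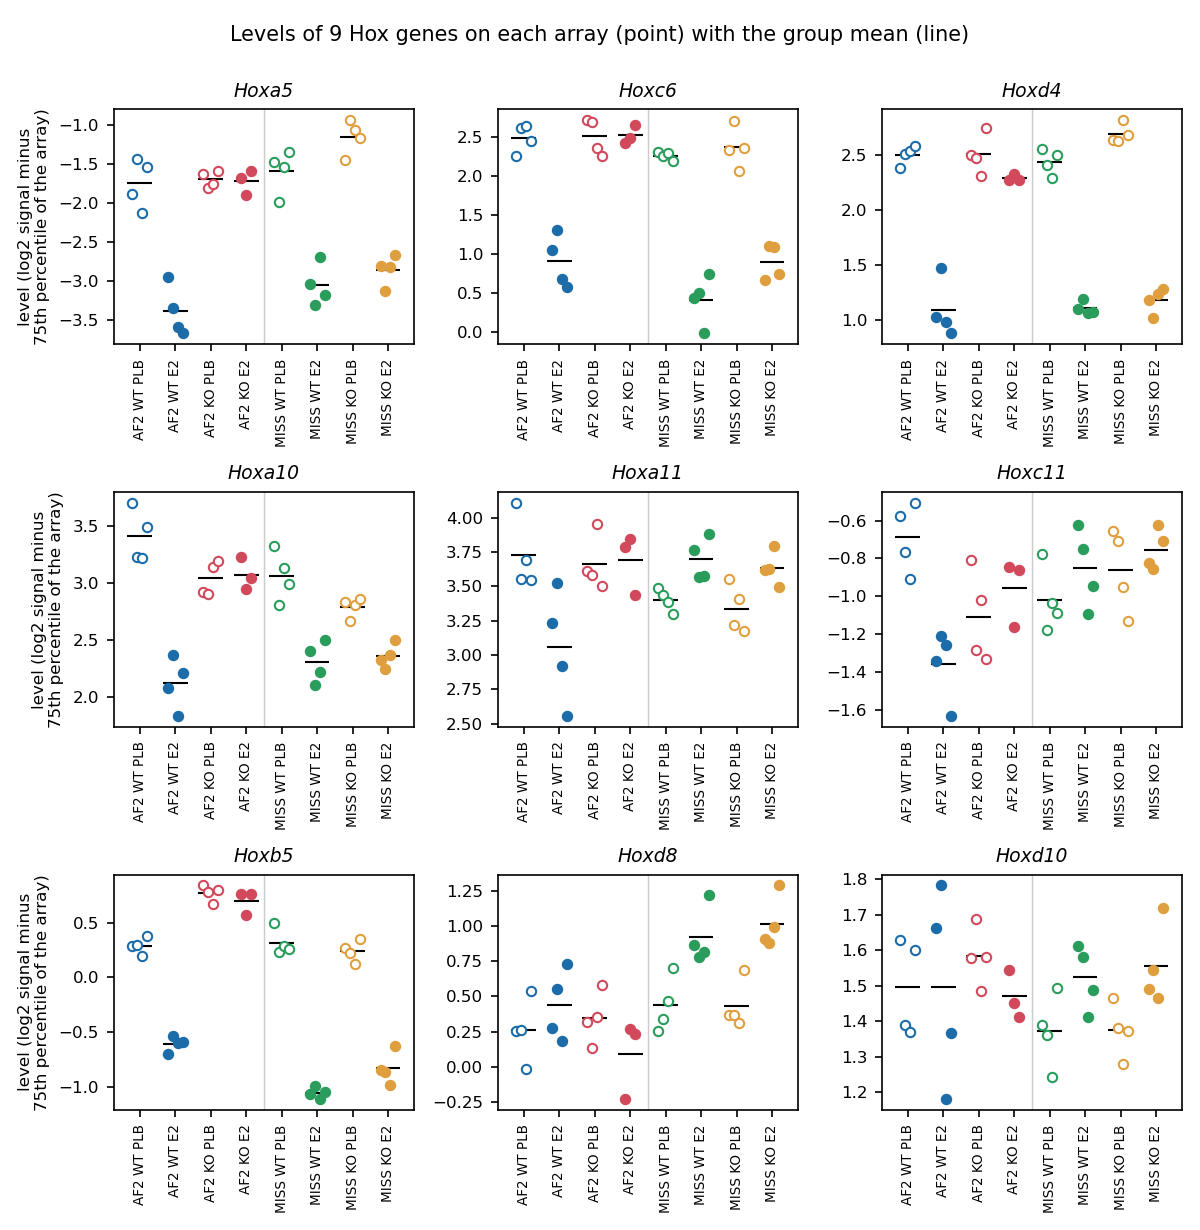
Levels (y axis, log2 signal minus the 75th percentile of the array) of 9 Hox genes on each array (points, open for placebo and filled for estradiol) with the group mean (line) in the 8 groups (x axis). Hoxa5, Hoxc6 and Hoxd4 fell in AF2 WT, MISS WT and MISS KO without overlap, Hoxa11 and Hoxc11 were called lower in AF2 WT and in neither MISS genotype, Hoxd8 rose in the MISS line, and Hoxd10 was called in no genotype. The y axes differ between panels.

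In the Hoxb cluster 7 of 8 tested genes fell in both wild types and the exception was Hoxb9. Hoxb5, which acts in the neural crest of the gut, had the tightest replicates. Hoxb5 (chr11:96167130-96167189) read 0.29, 0.30, 0.20 and 0.38 in AF2 WT placebo and −0.70, −0.54, −0.60 and −0.59 after E2. Hoxb5 in MISS WT read 0.49, 0.23, 0.28 and 0.26, then −1.07, −1.0, −1.11 and −1.05. Hoxb5 in MISS KO read 0.27, 0.22, 0.12 and 0.35, then −0.85, −0.86, −0.98 and −0.63. Each E2 group lay well below its placebo group. Hoxb5 in AF2 KO overlapped, with 0.84, 0.78, 0.67 and 0.80 against 0.76, 0.57 and 0.76, and its placebo arrays lay above all AF2 WT placebo arrays. The changes were −0.90 ± 0.08 (SE) in AF2 WT (adjusted p = 1.64e-10), −1.37 ± 0.08 in MISS WT (adjusted p = 2.84e-14), −1.07 ± 0.08 in MISS KO (adjusted p = 4.43e-12) and −0.08 ± 0.08 in AF2 KO (adjusted p = 0.728).

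Hoxb6 and Hoxb4, a regulator of blood stem cells, followed the same order. Hoxb6 (chr11:96162563-96162622) read 2.87, 2.84, 2.63 and 2.63 in AF2 WT placebo and 2.08, 2.56, 2.12 and 2.25 after E2. Hoxb6 in MISS WT read 2.98, 2.90, 2.69 and 2.65, then 1.75, 1.79, 1.62 and 1.73. The AF2 WT groups were narrowly apart and the MISS WT groups widely. Hoxb6 in MISS KO read 2.86, 2.74, 2.63 and 2.80, then 1.97, 1.84, 1.48 and 1.96. Hoxb6 in AF2 KO read 3.5, 3.5, 3.26 and 3.22, then 3.44, 3.23 and 3.4, with overlap. Its changes were −0.49 ± 0.11 (SE) in AF2 WT (adjusted p = 0.00061), −1.08 ± 0.11 in MISS WT (adjusted p = 4.78e-09) and −0.95 ± 0.11 in MISS KO.

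Hoxb4 (chr11:96182885-96182944) read 1.01, 1.28, 1.37 and 1.38 in AF2 WT placebo and 0.25, 0.63, 0.58 and 0.40 after E2. Hoxb4 in MISS WT read 1.25, 1.02, 1.23 and 1.39, then −0.10, −0.04, 0.07 and 0.34. Hoxb4 in MISS KO read 0.95, 1.19, 1.23 and 1.28, then 0.14, 0.21, 0.05 and 0.31. None of these groups overlapped. Hoxb4 in AF2 KO read 1.46, 1.47, 1.48 and 1.33, then 1.59, 1.57 and 1.65, all above placebo but with a change of 0.17 ± 0.11 (SE) that was not called (adjusted p = 0.499). The decrease was 1.73-fold in AF2 WT, 2.23-fold in MISS WT and 1.98-fold in MISS KO, and the difference between the wild types, −0.36 ± 0.15, was not called.

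Hoxb8, which acts in microglia and blood cells, fell in 3 genotypes. Hoxb8 (chr11:96146576-96146635) read −1.31, −1.56, −1.32 and −1.66 in AF2 WT placebo and −2.71, −1.86, −1.91 and −2.80 after E2. Hoxb8 in MISS WT read −0.81, −1.02, −0.97 and −1.13, then −1.77, −1.63, −2.26 and −2.47. Hoxb8 in MISS KO read −0.44, −0.88, −1.03 and −1.17, then −2.06, −2.19, −2.01 and −2.54. Each pair of groups stood apart. Hoxb8 in AF2 KO read −0.45, −0.64, −0.55 and −1.19, then −0.66, −0.98 and −0.82, with overlap. The changes were −0.86 ± 0.21 (SE) in AF2 WT (adjusted p = 0.00122), −1.05 ± 0.21 in MISS WT and −1.32 ± 0.21 in MISS KO.

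Hoxb3 fell with a wide spread between arrays of a group. Hoxb3 (chr11:96207114-96207173) read −0.41, −0.74, 0.21 and −0.15 in AF2 WT placebo and −1.77, −1.44, −1.32 and −0.75 after E2. Hoxb3 in MISS WT read −0.56, −0.77, 0.16 and −0.11, then −1.53, −1.63, −0.75 and −0.76. The AF2 WT groups were narrowly apart and the MISS WT groups overlapped. Hoxb3 in MISS KO read −0.54, −0.58, −0.34 and 0.02, then −1.11, −1.17, −0.58 and −0.45. Hoxb3 in AF2 KO read −0.26, −0.33, 0.48 and 0.41, then −0.08, 0.23 and 0.66. Its changes were −1.05 ± 0.27 (SE) in AF2 WT (adjusted p = 0.00179), −0.85 ± 0.27 in MISS WT (adjusted p = 0.00884) and −0.47 ± 0.27 in MISS KO, not called (adjusted p = 0.151). With slide as a block, or with the mean of its probes, the MISS KO decrease was called as well. A further Hoxb3 probe (chr11:96209002-96209061) gave −1.19 ± 0.14, −1.08 ± 0.14 and −0.76 ± 0.14 in these genotypes, all called.

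The other Hoxb genes changed less. Hoxb2 fell with a change of −0.59 ± 0.10 in AF2 WT, −0.43 ± 0.10 in MISS WT and −0.79 ± 0.10 in MISS KO (SE), and Hoxb7 with a change of −0.33, −0.23 and −0.35 with an SE of 0.09. The MISS WT call of Hoxb7 (adjusted p = 0.0261) was lost with median centring (adjusted p = 0.112) and without MISS WT E2 replicate 2, MISS WT PLB replicate 2 or MISS WT PLB replicate 3, at adjusted p of 0.06 to 0.0647. Hoxb9, which acts with its paralogs in the mammary gland, was the exception, higher in MISS WT by 0.49 ± 0.17 (adjusted p = 0.0129). Hoxb9 lay at −2.59 to −2.11 in MISS WT placebo and at −2.03 to −1.84 after E2, without overlap. Its changes were −0.11 in AF2 WT, 0.16 in MISS KO and 0.28 in AF2 KO, none called.

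In the Hoxc cluster the central genes Hoxc4 and Hoxc6 and the posterior gene Hoxc9 fell in 3 genotypes, and Hoxc10 and Hoxc11 in AF2 WT alone by these calls. Hoxc6 had the largest decrease of any Hox gene, 3.61-fold in MISS WT. Hoxc6 (chr15:102842243-102842302) read 2.27, 2.62, 2.64 and 2.45 in AF2 WT placebo and 1.05, 1.31, 0.68 and 0.58 after E2. Hoxc6 in MISS WT read 2.31, 2.27, 2.30 and 2.19, then 0.43, 0.50, −0.02 and 0.75. Hoxc6 in MISS KO read 2.34, 2.71, 2.06 and 2.37, then 0.67, 1.1, 1.09 and 0.74. Placebo and E2 arrays stood well apart in all 3. Hoxc6 in AF2 KO overlapped, with 2.73, 2.7, 2.37 and 2.26 against 2.43, 2.50 and 2.66. The changes were −1.59 ± 0.17 (SE) in AF2 WT (adjusted p = 5.28e-09), −1.85 ± 0.17 in MISS WT (adjusted p = 2.39e-10), −1.47 ± 0.17 in MISS KO (adjusted p = 1.85e-08) and 0.02 ± 0.18 in AF2 KO (adjusted p = 0.979).

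Hoxc4 (chr15:102867213-102867272) read −0.21, −0.06, −0.05 and 0.02 in AF2 WT placebo and −0.81, −0.87, −1.13 and −1.76 after E2. Hoxc4 in MISS WT read 0.10, −0.11, 0.13 and −0.34, then −1.35, −1.16, −1.48 and −1.30. Hoxc4 in MISS KO read −0.02, 0.19, −0.14 and −0.40, then −0.99, −0.61, −0.91 and −1.36. No E2 array reached its placebo group. Hoxc4 in AF2 KO read 0.16, 0.22, −0.25 and −0.29, then −0.14, −0.08 and −0.32, with overlap. Its changes were −1.07 ± 0.18 (SE) in AF2 WT (adjusted p = 9.49e-06), −1.27 ± 0.18 in MISS WT and −0.88 ± 0.18 in MISS KO.

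Hoxc9, which sets the identity of motor neurons in the thorax, was the least certain of the core genes. Hoxc9 (chr15:102814735-102814794) read −1.64, −1.64, −1.61 and −1.24 in AF2 WT placebo and −1.64, −2.10, −2.06 and −2.82 after E2, so the groups met. Hoxc9 in MISS WT read −1.15, −1.54, −1.15 and −1.32, then −2.48, −2.15, −2.93 and −2.40, well apart. Hoxc9 in MISS KO read −0.94, −0.54, −1.47 and −1.30, then −2.47, −1.42, −2.02 and −2.52, with overlap. Hoxc9 in AF2 KO read −0.98, −0.63, −1.5 and −1.36, then −1.26, −0.97 and −1.04. The AF2 WT change of −0.62 ± 0.25 (SE, adjusted p = 0.0347) was lost without AF2 WT E2 replicate 2, AF2 WT E2 replicate 4 or AF2 WT PLB replicate 4, at adjusted p of 0.0513 to 0.176. It was also lost with quantile normalization (adjusted p = 0.0982), with median centring, with the authors' deposited matrix and with only the groups compared. The MISS WT change was −1.20 ± 0.25 (adjusted p = 0.000151) and the MISS KO change −1.05 ± 0.25 (adjusted p = 0.000735).

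Hoxc11 and Hoxc10 are posterior genes that act in the hind limb, and only for Hoxc11 was the difference between the wild-type responses called. Hoxc11 lay at −0.91 to −0.51 in AF2 WT placebo and at −1.63 to −1.21 after E2, a change of −0.67 ± 0.14 (SE, adjusted p = 0.000131). Hoxc11 lay at −1.18 to −0.78 in MISS WT placebo and at −1.1 to −0.62 after E2, with overlap and a change of 0.17 that was not called. Hoxc10 fell with a change of −0.64 ± 0.21 in AF2 WT (adjusted p = 0.0103), a call lost with quantile normalization (adjusted p = 0.057) and without AF2 WT PLB replicate 4 (adjusted p = 0.0502). Its changes were −0.13 in MISS WT and 0.01 in MISS KO. Hoxc5 (−0.43 in AF2 WT) and Hoxc8, both dim, were called in no genotype, though Hoxc5 was in AF2 WT with slide as a block (adjusted p = 0.00932). With normexp Hoxc8 was called higher in MISS WT (0.31, adjusted p = 0.01045).

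In the Hoxd cluster Hoxd3 and Hoxd4 fell, Hoxd8 rose in the MISS line, and Hoxd10 and Hoxd11 were called in no genotype. Hoxd4, a retinoic acid-responsive gene of the hindbrain and neck, had some of the most even replicates. Hoxd4 (chr2:74566866-74566925) read 2.38, 2.51, 2.54 and 2.58 in AF2 WT placebo and 1.02, 1.47, 0.98 and 0.88 after E2. Hoxd4 in MISS WT read 2.56, 2.40, 2.29 and 2.50, then 1.1, 1.19, 1.06 and 1.07. Hoxd4 in MISS KO read 2.64, 2.63, 2.82 and 2.68, then 1.18, 1.02, 1.24 and 1.28. Each E2 group lay far below its placebo group. Hoxd4 in AF2 KO overlapped, with 2.50, 2.47, 2.31 and 2.74 against 2.27, 2.33 and 2.27. The changes were −1.41 ± 0.10 (SE) in AF2 WT (adjusted p = 5.62e-12), −1.33 ± 0.10 in MISS WT (adjusted p = 1.3e-11), −1.51 ± 0.10 in MISS KO (adjusted p = 1.24e-12) and −0.21 ± 0.11 in AF2 KO (adjusted p = 0.333).

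Hoxd3 fell with a change of −0.70 ± 0.11 in AF2 WT, −0.59 ± 0.11 in MISS WT and −0.50 ± 0.11 in MISS KO (SE), all called. Hoxd8 lay at 0.25 to 0.71 in MISS WT placebo and 0.78 to 1.22 after E2, and at 0.31 to 0.69 and 0.88 to 1.29 in MISS KO, so that every E2 array was above its placebo arrays. Its increase was 0.48 ± 0.15 (SE, adjusted p = 0.00682) in MISS WT and 0.58 ± 0.15 (adjusted p = 0.00141) in MISS KO, against 0.18 in AF2 WT, not called. Both increases were called under every other scaling tried, with 0.40 to 0.64 as the range. Hoxd9 fell in AF2 WT with a change of −0.46 ± 0.09 and in MISS KO with a change of −0.28 ± 0.09, and its −0.19 ± 0.09 in MISS WT was not called (adjusted p = 0.0675). The Hoxd9 change in MISS WT was larger and called with quantile normalization, −0.51 (adjusted p = 2.07e-06), and in the authors' deposited matrix, −0.53 (adjusted p = 3.52e-06). It was called as well with normexp, with slide as a block and without MISS WT PLB replicate 3, at adjusted p of 0.0161 to 0.0372. Hoxd10, a limb and lumbar gene, had changes of −0.11 to 0.18 and Hoxd11 of −0.08 to 0.31 over the 4 genotypes. Hoxd11 was called higher in MISS WT with slide as a block (0.31, adjusted p = 0.0037) and with the mean of its probes (0.25, adjusted p = 0.0315). It was called lower in MISS KO in the authors' deposited matrix (−0.38, adjusted p = 0.0465). A further Hoxd11 probe (chr2:74522136-74522195) gave 0.18 ± 0.21 in MISS WT and 0.21 ± 0.21 in MISS KO, not called.

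Genes that fell were read by bright and by middling probes, and not by the dimmest. Of 14 tested Hox genes with a mean level above 0 over all arrays, 11 were lower in AF2 WT, and of 13 between −3 and 0, 12 were. Of the 5 below −3, among them Hoxa13 and Hoxc8, 0 were called in any genotype, though some were under other settings. Within slides, as values with no test, all 23 called AF2 WT changes, all 21 in MISS WT and all 20 in MISS KO kept their sign. This had to be so for every gene whose placebo and E2 arrays did not overlap, so it adds no support. The values on single arrays did not overlap between placebo and E2 for 22 of the 32 tested Hox genes in AF2 WT, 21 in MISS WT, 20 in MISS KO and 2 in AF2 KO, against 49.6%, 54.8%, 53.1% and 16.6% of all tested genes. Among called genes this held for 22 of 23, 20 of 21 and 19 of 20 Hox genes in the first 3, the exceptions being Hoxc9, Hoxb3 and Hoxc9, and for 83.7%, 85.3% and 89.7% of all called genes.

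The size of some called changes moved by over 1.5 times with the processing, though each kept its sign. With normexp background correction the decrease was smaller for Hoxa2 (−0.54 in AF2 WT, −0.61 in MISS WT), Hoxa5 (−1.06 and −0.97) and Hoxa6 (−0.65 and −0.78). With quantile normalization it was larger for Hoxa11 (−1.04 in AF2 WT), Hoxb6 (−0.77 in AF2 WT), Hoxb7 (−0.55 in AF2 WT and −0.50 in MISS WT), Hoxd9 (−0.72 in AF2 WT) and Hoxa10 in MISS KO (−0.72). In the authors' deposited matrix the AF2 WT change was −0.55 for Hoxb8 and −0.35 for Hoxc10.

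In AF2 KO no Hox gene passed the test, and the difference from the wild type was itself tested. The response of AF2 KO minus that of AF2 WT was called for 20 of 32 Hox genes, all 20 higher, against 28.9% higher and 23.0% lower, 52.0% called in all, among all genes. The median of these differences was 0.69 for the Hox genes and 0.18 for all genes, which other settings placed between 0.02 and 0.23. The largest were 1.61 ± 0.25 (SE) for Hoxa5 (adjusted p = 6.73e-06), 1.60 ± 0.24 for Hoxc6 (adjusted p = 4.72e-06), 1.57 ± 0.23 for Hoxa3 (adjusted p = 2.43e-06) and 1.32 ± 0.19 for Hoxa10 (adjusted p = 1.56e-06). Hoxb3 differed by 1.24 ± 0.40, Hoxd4 by 1.20 ± 0.15, Hoxa6 by 1.12 ± 0.32, Hoxa9 by 1.01 ± 0.21, Hoxb4 by 0.96 ± 0.16 and Hoxc4 by 0.93 ± 0.26. Smaller called differences were those of Hoxb5, Hoxc11, Hoxd3, Hoxb2, Hoxa11, Hoxa2, Hoxa7, Hoxb6, Hoxb7 and Hoxd9, from 0.84 down to 0.39. Hoxb8 (adjusted p = 0.051), Hoxc9 and Hoxc10 fell in AF2 WT without a called difference. Other settings called that of Hoxb8, as with slide as a block (0.78, adjusted p = 0.0102), and that of Hoxc10 with normexp (0.49, adjusted p = 0.0219). Hoxd8 was called in the other direction with slide as a block (−0.46, adjusted p = 0.005) and with median centring (−0.51, adjusted p = 0.0493). In AF2 KO the 95% interval of the E2 change lay within 2-fold for 30 of 32 genes, all but Hoxa13 and Hoxc8.

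Some of these differences rested on single arrays or on the processing. The call of Hoxa2 (0.67 ± 0.27, adjusted p = 0.039) was lost without any 1 of 8 of the 15 AF2 arrays, at adjusted p of 0.0609 to 0.0958. The Hoxa2 difference was 0.36 with quantile normalization (adjusted p = 0.264), 0.40 with normexp (adjusted p = 0.1) and 0.23 in the authors' deposited matrix (adjusted p = 0.338), and the call was lost with median centring and with no filter on dim probes too. That of Hoxa7 was lost with median centring, with only the groups compared and without any 1 of 6 arrays, the latter at adjusted p of 0.0515 to 0.0914. Those of Hoxb6, Hoxb7 and Hoxd9 were lost without AF2 KO E2 replicate 1, at adjusted p of 0.0533, 0.0522 and 0.0621. The other 15 calls held without each array in turn, and 14 of the 20 held under every other setting. The Hoxa11 call was lost with only the groups compared (adjusted p = 0.061). Chemosensory receptor genes, whose probes lie near background, moved in the same comparison. Of 346 tested, 52 were higher and 0 lower with E2 in AF2 KO, against 3.11% and 0.554% of all genes. Their difference between the responses had a median of 0.72, with 139 called higher and 8 lower, against 28.9% and 23.0% of all genes. Hox genes with a mean level above 0 gave a median difference of 0.67, with 11 of 14 called, and the 5 dimmest gave 0.16 with 0 called. The part of dim signal in the Hox differences was not tested.

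**Figure D4:**
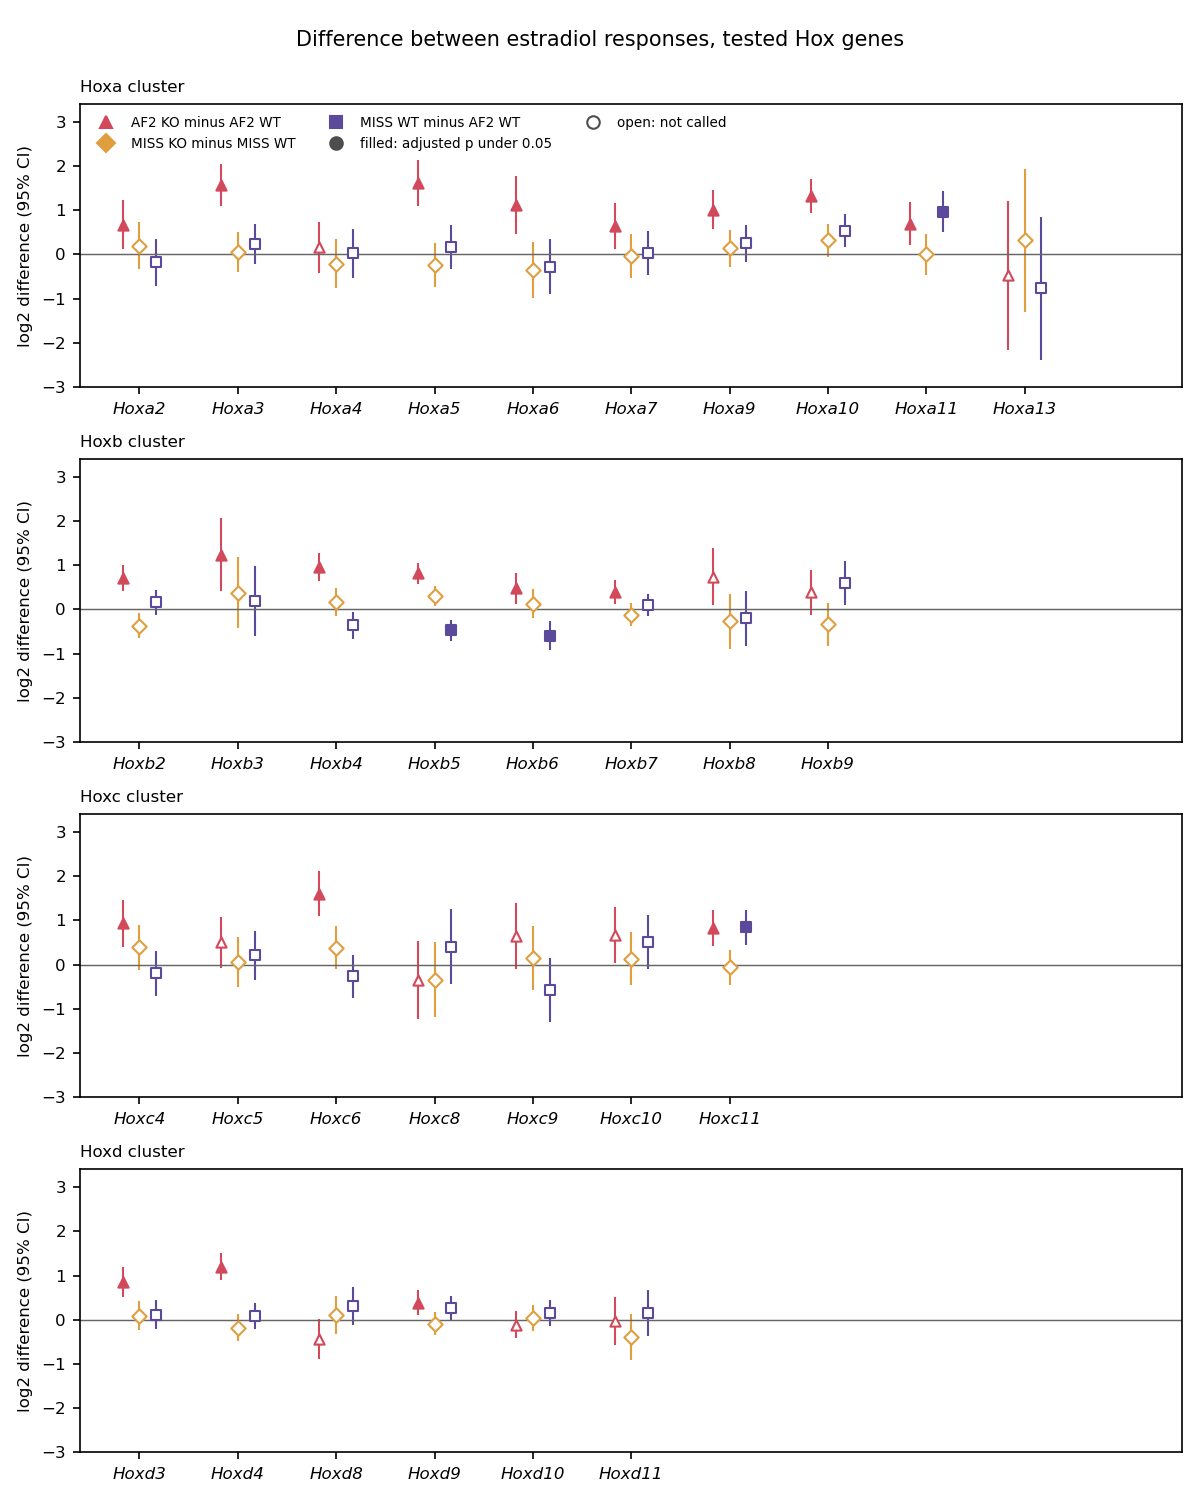
Log2 difference between estradiol responses (y axis) with its 95% confidence interval (bars) for the tested Hox genes shown (x axis), 1 panel per cluster, for AF2 KO minus AF2 WT (triangles), MISS KO minus MISS WT (diamonds) and MISS WT minus AF2 WT (squares). Filled symbols are called. There are 20 filled triangles, all above 0, 0 filled diamonds, and 4 filled squares at Hoxa11, Hoxc11, Hoxb5 and Hoxb6.

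In the MISS line the response of the mutant was not told apart from that of the wild type. The difference was called for 0 of 32 Hox genes by limma, with 2 at an unadjusted p under 0.05, against 0.904% of all genes called. The median difference was 0.05, with −0.07 for all genes, and single genes lay between −0.40 and 0.39. The 95% interval lay within 2-fold for 29 of the 32. The farthest named member was Hoxc4, at 0.39 ± 0.25 (SE, 95% interval −0.13 to 0.91). Those with an unadjusted p under 0.05 were Hoxb2, −0.37 ± 0.14 (adjusted p = 0.292), and Hoxb5, 0.30 ± 0.11 (adjusted p = 0.274). A miss of the threshold does not show that the genotypes respond alike.

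The wild types of the lines differed in 4 Hox responses, against 9.49% of all genes called. MISS WT minus AF2 WT was 0.96 ± 0.22 (SE) for Hoxa11 and 0.84 ± 0.19 for Hoxc11 (adjusted p = 0.00634), both of paralogous group 11. It was −0.47 ± 0.11 for Hoxb5 (adjusted p = 0.00685) and −0.59 ± 0.16 for Hoxb6 (adjusted p = 0.0197), both of which fell more in MISS WT. These 4 held without each array in turn and under every other setting. Hoxd11, the other tested gene of paralogous group 11, had a difference of 0.15 ± 0.25, not called. Line and substrain cannot be told apart in this contrast. The MISS WT and AF2 WT arrays were spread over the same 4 slides.

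Without hormone the groups differed in few Hox genes. AF2 KO placebo arrays were higher than AF2 WT placebo arrays for Hoxb5 by 0.48 ± 0.08 (SE, adjusted p = 0.000191). They were also higher for Hoxb6 by 0.63 ± 0.11 (adjusted p = 0.000613) and for Hoxb8 by 0.76 ± 0.21 (adjusted p = 0.0243). Hoxb7, which lies between these genes, had 0.15. Hoxb9, next to Hoxb8, went the other way at −0.52, as did Hoxc11 at −0.42, neither called. Both were called lower under some other settings, as with slide as a block (adjusted p = 0.00395 and 0.0173). For Hoxb5, Hoxb6 and Hoxb8 the groups stood apart, as for 6 of the 32 tested Hox genes and 14.2% of all genes. In this comparison 9.04% of all genes were called. The Hoxb8 call was lost without any 1 of 5 of the 8 arrays, at adjusted p of 0.0591 to 0.0863. With slide as a block 8 Hox genes were called, among them Hoxa10 with −0.37 (adjusted p = 0.0216) and Hoxa9 with −0.38 (adjusted p = 0.0494), which were lower in AF2 KO, while the share of all genes called rose to 20.1%. Of 12 epithelial markers 4 were higher and 1 lower in AF2 KO placebo, with a median of 0.39. The log2 of their summed level lay at 7.07 to 7.38 in AF2 WT placebo and at 7.46 to 7.93 in AF2 KO placebo, and their part in the Hox differences was not tested. MISS KO against MISS WT placebo gave 0 called Hox genes by limma, 3 at an unadjusted p under 0.05, against 0.886% of all genes. MISS WT against AF2 WT placebo also gave 0, with 4 at an unadjusted p under 0.05, against 11.6% of all genes.

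Noncoding RNAs from within the clusters fell in the same 3 genotypes as most Hox genes, also where a Hox gene beside them was not called. Of 14 listed 5 were on the array and 4 were tested, and all 4 were lower in AF2 WT, MISS WT and MISS KO, with medians of −1.74, −1.52 and −1.75. Lower among all genes were 30.0%, 27.1% and 27.2% in these genotypes. Hoxa11as, transcribed opposite Hoxa11, fell with a change of −2.06 ± 0.23 (SE) in AF2 WT and −1.41 ± 0.23 in MISS WT, where Hoxa11 itself had 0.30, not called, a value whose sign turned under other scalings. The transcript 2700086A05Rik of the Hoxa cluster fell with a change of −1.77 ± 0.14 in AF2 WT and 1700109F18Rik of the Hoxd cluster with a change of −1.71 ± 0.12. HOTAIR, a Polycomb-linked RNA of the Hoxc cluster, fell with a change of −0.78 ± 0.16. In AF2 KO 0 of 4 were called, against 3.67% of all genes. The differences from AF2 WT, from 0.79 to 2.22, were all called higher, against 28.9% of all genes. Genes that flank the clusters showed no common direction. Of 15 tested 5 rose and 3 fell in AF2 WT, with a median of 0.04, against 27.7% and 30.0% of all genes, and 6 rose and 4 fell in MISS WT, against 35.2% and 27.1%. Among them Snx11 beside Hoxb rose by 1.38 ± 0.14 and Mtx2 beside Hoxd by 0.75 ± 0.09, while Calcoco1 near Hoxc fell with a change of −1.22 ± 0.10 and Skap1 with a change of −0.61 ± 0.22 in AF2 WT.

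The partners of Hox proteins went both ways. Of 9 tested TALE cofactor genes 4 rose and 3 fell in each of AF2 WT, MISS WT and MISS KO, and 0 were called in AF2 KO. The share of all genes called in the first 3 was 57.6%, 62.3% and 57.3%. In AF2 WT Pknox2 rose by 1.96 ± 0.12 (SE) and Pknox1 by 1.35 ± 0.13, while Pbx4 fell with a change of −1.11 ± 0.20 and Meis2 with a change of −1.08 ± 0.08. Of 24 tested Polycomb and Trithorax genes 12 rose and 6 fell in AF2 WT, and 11 rose and 9 fell in MISS WT, beside the same 57.6% and 62.3% of all genes. Cbx2, a Polycomb reader of methylated histone H3, fell with a change of −2.41 ± 0.18, the related Cbx8 with a change of −2.21 ± 0.63 and the methyltransferase Ezh1 with a change of −1.73 ± 0.16, and Wdr5, a Trithorax-complex subunit, rose by 1.5 ± 0.06. In AF2 KO 0 of these 24 were called.

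Genes named as targets of Hoxa10 or Hoxa11 in uterus mostly rose with E2 in the wild types. Of 15 tested 9 rose and 4 fell in AF2 WT, with a median of 0.72, and 12 rose and 3 fell in MISS WT, with a median of 1.45. Of all genes 27.7% rose and 30.0% fell in AF2 WT, and 35.2% and 27.1% in MISS WT, with medians of −0.06 and 0.16. In AF2 WT the cell cycle inhibitor Cdkn1a rose by 4.23 ± 0.18 (SE), the decidual signal Wnt4 by 3.71 ± 0.23 and the implantation cytokine Lif by 2.60 ± 0.28, and the retinoic acid hydroxylase Cyp26a1 fell with a change of −1.69 ± 0.29. All of these were 0.70 or nearer to 0 in AF2 KO, and none was called there. The part of Hoxa10 or Hoxa11 in the changes of the listed genes was not tested. Of 16 other homeobox genes of the reproductive tract 3 rose and 6 fell in AF2 WT, against the same shares. Meox2 fell with a change of −1.95 ± 0.22, Satb1 with a change of −1.67 ± 0.14 and Six4 with a change of −1.12 ± 0.13, and Alx1 fell in AF2 WT with a change of −0.83 ± 0.28 and in AF2 KO with a change of −1.23 ± 0.30 (adjusted p = 0.0193).

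Markers of the stroma, the compartment that expresses Hoxa10 and Hoxa11, were mostly lower in AF2 WT. Of 10 stroma markers 8 were lower and 0 higher in AF2 WT, with a median of −0.83, 4 lower and 0 higher in MISS WT, with a median of −0.29, and 5 lower and 1 higher in MISS KO, with a median of −0.26. Of all genes 30.0%, 27.1% and 27.2% were lower in these genotypes. In AF2 KO, where no Hox gene was called, 2 were lower, Col1a2 and Lum, against 0.554% of all genes. The median of the 10 stroma markers there was −0.27, close to those of the MISS line. The log2 of their summed level lay at 9.16 to 9.42 in AF2 WT placebo and 8.34 to 8.70 after E2, at 9.26 to 9.70 and 8.60 to 8.77 in MISS WT, at 9.26 to 9.57 and 8.46 to 9.0 in MISS KO, and at 9.38 to 9.69 and 9.05 to 9.18 in AF2 KO. In AF2 WT Pdgfra fell with a change of −1.30 ± 0.11 (SE), Lum with a change of −1.85 ± 0.18, Dcn with a change of −0.76 ± 0.13 and Hand2, a stromal progesterone target, with a change of −0.75 ± 0.12. In MISS WT Hand2 changed by 0.15, not called, and Pdgfra fell with a change of −1.1 ± 0.11. Smooth muscle markers rose in MISS WT, 7 of 10 with 1 lower, and in MISS KO, 6 of 10 with 1 lower. In AF2 WT 0 rose and 2 fell, and in AF2 KO 0 were called, with a median of −0.39. Higher among all genes were 35.2% in MISS WT, 30.1% in MISS KO and 27.7% in AF2 WT. Of 12 epithelial markers 6 rose and 0 fell in AF2 WT, and 5 rose and 2 fell in MISS WT. Of 9 immune markers 4 fell and 1 rose in AF2 WT, with a median of −0.33, 5 fell and 0 rose in MISS WT, with −0.62, 3 fell and 1 rose in MISS KO, with −0.15, and 0 fell and 1 rose in AF2 KO, with 0.15. The log2 of their summed level lay at 6.0 to 6.34 in AF2 WT placebo and 5.42 to 5.76 after E2, and at 5.71 to 6.32 and 5.44 to 5.84 in MISS WT. In whole uterus, fewer cells of a type and less RNA per cell cannot be told apart, and the part of these markers in the Hox changes was not tested.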

How the data were processed

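The deposited files are the scanner output of 31 one-colour (Cy3) Agilent arrays, which the authors read with a scanner and, per the submitters' processing notes, Feature Extraction 10.10.1.1 of Agilent. Its processed signal is, per the file headers, an intensity with background subtracted, not normalized between arrays, with 0/1 values that mark other properties of a spot (outlier, saturated, well above background). The authors also deposited a matrix of log2 values, used as an alternative. The submitters' processing notes name limma without a step, and probe positions are mm9 per the file headers. Each array holds 62976 spots, 59305 of them not controls, for 55681 probes.

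Outlier spots were left out, spots of a probe averaged as log2 values, and the 75th percentile of the array subtracted. A gene was its brightest probe (highest mean over 31 arrays), and gene names are those of the array. Of 34797 names, 26876 were tested. A limma 3.58.1 model in R 4.3.3 gave each of the 8 groups a mean over all 31 arrays (23 residual and 2.39 prior degrees of freedom). There were 10 contrasts, and calls needed an adjusted p (Benjamini-Hochberg, all tested genes) under 0.05. Intervals are at 95%. A gene below background in the dimmer group has a fold given as "at least", against the lowest well-above-background signal of each array. The script was tested on simulated data. Full values are given for Hoxa9, Hoxa10, Hoxa11, Hoxa13 and members called with a 2-fold or larger E2 change, and at most 4 genes of each list are named, those with the largest called changes, beyond which Alx1, Hand2 and markers were named after their values were seen. Values of 1 member enter the counts and are not reported here. Members and lists were chosen with earlier results of these data known. Alternatives covered scaling, background correction, filters, probe choice, slide, variance model, the deposited matrix and each array left out.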

Additional observations from a re-analysis of the deposited data

Results flagged for a closer look

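Single arrays stood apart in 3 of 119 groups of named Hox genes, by Dixon's 95% limit, and chance alone gives about 1 in 20. They were Hoxa6 on MISS WT E2 replicate 4, at −3.46 with the next array at −3.0, Hoxc9 on AF2 WT PLB replicate 4, at −1.24 with the next at −1.61, and Hoxb4 on AF2 KO PLB replicate 4, at 1.33 with the next at 1.46.

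The response of AF2 KO differed from that of AF2 WT by a tested difference, on the log2 scale, of 0.67 for Hoxa2 (0.23 in the authors' deposited matrix and 0.36 with quantile normalization, neither called), 1.57 for Hoxa3, 1.61 for Hoxa5, 1.12 for Hoxa6, 1.01 for Hoxa9, 1.32 for Hoxa10, 0.70 for Hoxa11, 1.24 for Hoxb3, 0.96 for Hoxb4, 0.82 for Hoxb5, 0.48 for Hoxb6, 0.93 for Hoxc4, 1.60 for Hoxc6 and 1.20 for Hoxd4. The responses of the wild types differed by 0.96 for Hoxa11, −0.47 for Hoxb5 and −0.59 for Hoxb6, as MISS WT minus AF2 WT.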

How the results depend on the processing

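No E2 change or difference of a tested Hox gene that was called turned its sign under any of the 10 other settings or without any single array. Of the called changes, 20 of 23 in AF2 WT, 20 of 21 in MISS WT, 20 of 20 in MISS KO and 14 of 20 differences between AF2 KO and AF2 WT were called under all other settings. The number of Hox genes higher or lower in AF2 KO than in AF2 WT under placebo was 3, and became 5 with normexp background correction, 5 with the mean of all tested probes and 8 with slide as a block, where 14.5%, 9.98% and 20.1% of all genes were called in place of 9.04%. Between the wild types under placebo it was 0, and became 2 with normexp, 1 with no filter on dim probes, 4 with slide as a block, where 20.9% of all genes were called in place of 11.6%, and 0 to 2 without single arrays. The cause was not tested. With the rule that a signal be positive and significant, 33 genes were detected on all 31 arrays in place of 30. No paired analysis by replicate number was possible because the labels give no shared numbers to the groups compared, and those used here are in accession order. The groups do share 4 slides, and slide as a block is the analysis within slides. Signal over background limits the dim members: among them Hoxa4, Hoxa13, Hoxc5, Hoxc8 and the 7 untested genes.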
